A study of Caenorhabditis elegans with 2 samples.

Results

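The 10 genes described here, xol-1, sex-1, fox-1, her-1, tra-2, tra-3, fem-1, fem-2, fem-3 and tra-1, form the core of the Caenorhabditis elegans sex determination pathway, and they are 10 of 19973 annotated protein-coding genes. A region of NHR-77 signal was assigned to a gene when its summit lay inside the gene or within 5000 bp of its 5′ end on either side, and 40 of 30000 regions were assigned to the 10 genes in this way. The highest of them lay 4828 bp upstream of xol-1, with a signal value of 149.7 and rank 14 of 30000. The next lay 2876 bp upstream of tra-2, with a signal value of 34.7 and rank 240. Its summit was inside the small nuclear RNA gene sup-39, and eif-2Bgamma, not tra-2, had the nearest protein-coding start. The other 8 genes had no region among the peaks that passed the authors' threshold.

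In C. elegans the ratio of X chromosomes to autosomes sets the activity of xol-1, a switch gene that is active in XO males and kept low in XX hermaphrodites. XOL-1 represses sdc-2, which otherwise turns on dosage compensation of the X chromosomes and represses the male-promoting gene her-1. Downstream of it runs a chain of negative steps through the TRA-2 receptor and the FEM proteins to the zinc-finger protein TRA-1, the Gli-type transcription factor that directs hermaphrodite development. The nuclear hormone receptors are a large family of zinc-finger transcription factors in this nematode, and both NHR-77 and SEX-1 belong to it.

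The study measured NHR-77 occupancy by chromatin immunoprecipitation and sequencing (ChIP-seq) in whole L2 larvae, with 2 biological replicates of 1 group. The worms were of strain OP353, which carries the unc-119(tm4063) mutation on chromosome III and the transgene wgIs353, the source of the eGFP-tagged NHR-77, and the labels give the sex as a pool of males and females, the XX animals of this species being hermaphrodites. Both replicates had this genotype, and no other strain, stage or control sample was used here. Results are thus descriptions of 1 strain at 1 stage in whole animals, where signal from different tissues, or from the 2 sexes, cannot be told apart. Whether binding of the tagged protein from a transgene equals that of the native protein was not tested.

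The pooled relaxed list, which the authors made from both replicates to include background, held 30000 regions with signal values from 5.72 to 244.8 and a median of 7.98. The authors' thresholded list held 415 peaks with signal values of 27.1 and above. The lists of replicate 1 and replicate 2 held 23256 and 30000 regions. The signal value is a score of unstated scale, so ranks are compared between lists and signal values only within a list. Sequencing depth cannot be read from these lists, so the precision it gives is unknown.

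The sequences under the highest regions of xol-1, tra-2 and fem-1 are shown because these 3 regions ranked highest of the 40. All are from the plus strand of genome build WBcel235 (ce11). The xol-1 region is chrX:8036310-8036559. Its capitals mark the letters GCGCAGG on either strand, the core of a motif known from the X-chromosome sites where the dosage compensation complex loads. The tra-2 stretch is chrII:6968424-6968673, and its capitals mark bases inside the annotated small nuclear RNA gene sup-39, which lies on the minus strand. The fem-1 stretch is chrIV:5537925-5538124, and its capitals mark bases inside the annotated fem-1 gene, which runs on the minus strand.
xol-1 region: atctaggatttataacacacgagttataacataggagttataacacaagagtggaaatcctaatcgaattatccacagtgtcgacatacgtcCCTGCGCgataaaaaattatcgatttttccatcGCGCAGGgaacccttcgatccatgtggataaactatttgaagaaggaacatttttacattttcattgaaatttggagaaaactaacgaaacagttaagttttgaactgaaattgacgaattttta
tra-2 region: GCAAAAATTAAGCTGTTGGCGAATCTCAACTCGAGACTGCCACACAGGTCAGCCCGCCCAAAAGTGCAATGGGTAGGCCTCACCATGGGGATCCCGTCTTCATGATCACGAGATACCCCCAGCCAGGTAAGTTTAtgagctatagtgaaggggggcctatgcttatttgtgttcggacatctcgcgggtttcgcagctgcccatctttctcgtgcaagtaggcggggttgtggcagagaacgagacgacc
fem-1 region: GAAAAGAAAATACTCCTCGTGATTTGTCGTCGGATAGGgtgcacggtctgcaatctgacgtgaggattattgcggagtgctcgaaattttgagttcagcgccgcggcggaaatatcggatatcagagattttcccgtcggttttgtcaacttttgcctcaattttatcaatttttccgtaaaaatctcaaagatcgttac

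All 10 genes had at least 1 pooled region. By the same rule 93.4% of all protein-coding genes had one, so the count of 10 is near the background and says nothing particular about these genes. A thresholded peak was assigned to 2 of the 10, xol-1 and tra-2, against 5.24% of all protein-coding genes. In the list of replicate 1 all 10 genes had a region, against 89.7% of protein-coding genes, and in that of replicate 2 all 10 had one, against 93.9%. The genes had a median of 3 regions each, the same median as all protein-coding genes. The median rank of the highest region was 6544 over the 10 genes and 6213 over all protein-coding genes with a region. In replicate 1 that median rank was 3107 for the 10 genes and 5777 for all genes, and in replicate 2 it was 9100 and 6294. The genes thus stood above the median of all genes in one replicate and below it in the other.

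**Figure D1:**
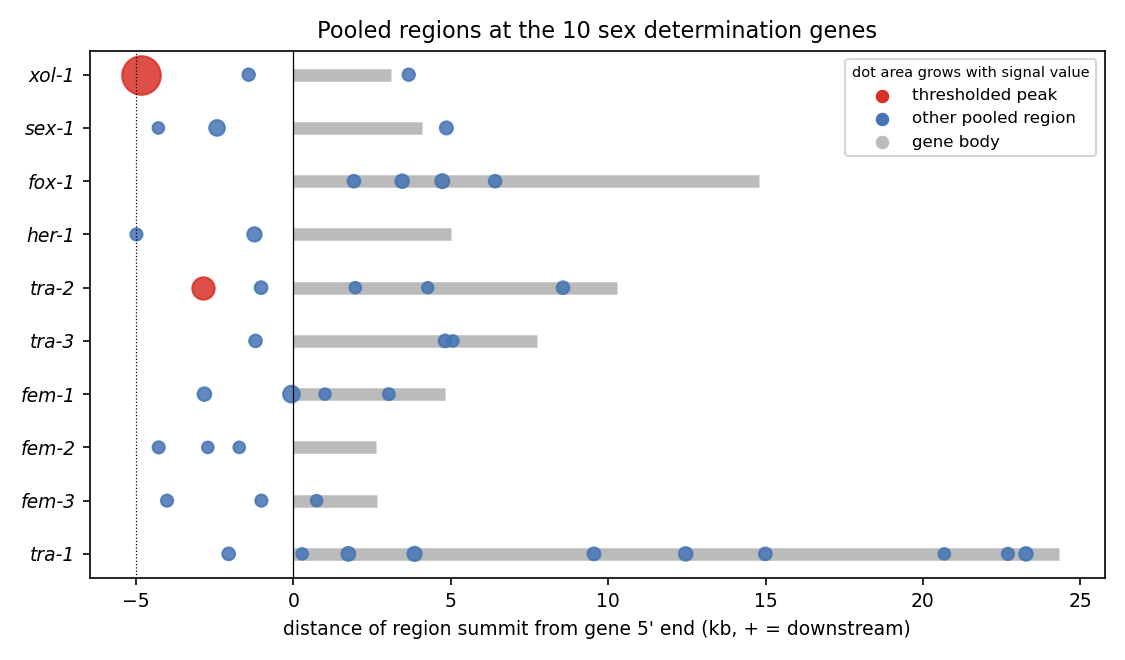
Position of each of the 40 pooled regions, as the distance of its summit from the gene's 5′ end in kb on the horizontal axis, for the 10 genes on the vertical axis. Dot area grows with signal value, grey bars are gene bodies, the dotted line is the 5000 bp limit, and red dots are the 2 thresholded peaks, of which the xol-1 peak at 149.7 lies near the limit.

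Most of the 40 regions were low. Their median signal value was 7.60, against 7.98 for all pooled regions, and 4 of 40 ranked within the first 5000 of 30000. Of the 40, 21 lay inside a gene of the pathway (16 in introns, 4 in coding exons, 1 in a non-coding exon), 17 lay upstream and 2 downstream. Only 2 lay within 500 bp of a member's 5′ end, 1 at fem-1 and 1 at tra-1. For 24 of 40 the member had the nearest protein-coding start. No shares of all pooled regions stand beside these counts of place, which depend in part on the assignment rule. Whether they are particular to these genes was not tested. Regions of both replicates overlapped 9 of 40 (22.5%), against 21.9% of all pooled regions. A further 19 met a region in replicate 2 alone, 9 met one in replicate 1 alone, and 3 met none in either list. Of all 30000 pooled regions 14477 met one in replicate 2 alone, 4548 in replicate 1 alone, and 4394 (14.6%) in neither.

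The assignment limit of 5000 bp decided some of the values. Regions just inside it were those at 4988 bp from her-1 (signal value 6.80), 4860 bp from sex-1 (8.21) and 4828 bp from xol-1 (149.7). The first regions just outside a window lay 5552 bp from fem-1 (7.53), 5606 bp from fem-3 (7.51) and 5661 bp from tra-1 (6.73). At sex-1 the first region outside lay at 6429 bp and its signal value of 16.0 was above that of every region inside, and at fem-2 the region at 6004 bp, with 11.9, was likewise above those inside. No thresholded peak other than those at xol-1 and tra-2 lay within 10000 bp of any of the 10 starts.

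xol-1 (WBGene00006962) encodes the switch protein at the top of the pathway, and it lies at X 8041313 to 8044409 on the plus strand. Its highest region spanned X 8036310 to 8036559, with the summit at 8036485. The region had rank 14 and signal value 149.7 in the pooled list, rank 27 and 40.4 in replicate 1, and rank 14 and 107.5 in replicate 2. It was therefore near the top of all 3 lists. The list of replicate 1 included 23 mitochondrial regions, and among its nuclear regions the xol-1 region had rank 11.

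The summit was intergenic with respect to protein-coding genes, and xol-1 had the nearest protein-coding start. On the other side C34D10.1 ended 4871 bp away and started 7006 bp away. Closer to the summit than xol-1 were short RNA genes. The non-coding RNA gene C18A11.13 started 189 bp away and a tRNA gene of the minus strand, WBGene00022939, which lies inside it, ended 200 bp away. A second tRNA gene, WBGene00022938, started 1022 bp away. Distance alone does not tie the region to any of these genes.

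The remaining pair of regions at xol-1 were at background height. One lay 1423 bp upstream with a signal value of 7.31 and rank 18658, and overlapped a region of replicate 1 at rank 16122 and none of replicate 2. The other lay beyond the gene, 3662 bp downstream of its 5′ end, with a signal value of 7.15 and rank 19545, and overlapped a region of replicate 2 at rank 6148 and none of replicate 1. The second was nearer to the start of C18A11.4, at 543 bp, than to that of xol-1. No pooled region lay within 500 bp of the xol-1 start.

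Windows of the same length, 10001 bp, were laid in the same way at 2730 other protein-coding genes of the X chromosome. The highest signal value in the xol-1 window was met or passed in 25 of them (0.916%), in 13 (0.476%) in replicate 1 and in 23 (0.842%) in replicate 2. The median highest signal value of these windows was 10.4. Neighbouring genes share windows and regions, so the 25 windows rested on at most the 11 X-chromosome regions above that of xol-1. By number of regions the xol-1 window held 3 in the pooled list and 3 in replicate 2, each against a median of 3. In replicate 1 it held 6 against a median of 2, and 3.66% of windows held as many or more. The replicates thus agreed on the height of the highest region and differed in the number of regions.

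**Figure D2:**
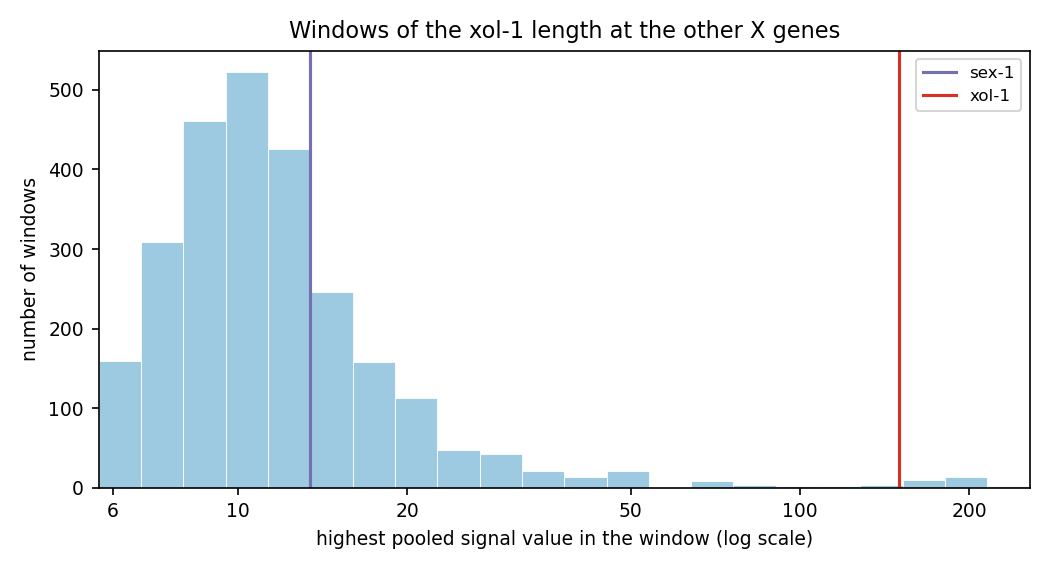
Highest pooled signal value (log scale, horizontal axis) in windows of 10001 bp at the other protein-coding genes of the X chromosome, with the number of windows on the vertical axis; 144 windows with no region are not drawn. Vertical lines mark sex-1 at 13.5, near the bulk of the windows, and xol-1 at 149.7, to the right of nearly all of them.

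The X-linked genes next above xol-1 by their highest region were F22H10.2 and F22H10.3, which share a region with signal value 152.5, then fbxb-58 and ZK380.2 with 157.3, then lev-9, mom-1 and cest-16 with 172.9. The genes next below were ins-39 with 140.3, pks-1 with 137.3, and gtr-1 and F25E2.2 with 136.7. The region at xol-1 was thus 1 of a run of high X-chromosome regions of similar height, at ranks 11 to 17.

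In the xol-1 sequence printed above, GCGCAGG occurred in 2 copies in the 200 bp centred on the summit. One was on the minus strand at X 8036402 to 8036408 and the other on the plus strand at 8036435 to 8036441, with 26 bases between them. They lie in an inverted repeat whose arms, tccctgcgcgat and atcgcgcaggga, are 12 bases long with 20 bases between them. The arms span 8036400 to 8036443, and the summit lies 74 bases past the left arm. An inverted repeat with arms of 12 or more bases was present in the 250 bp windows of 5.16% of all pooled regions and 3 of 40 at the 10 genes. On the X chromosome it was in 3 of 89 peaks (3.37%) and 116 of 5248 other regions (2.21%).

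The same 7 letters, searched on both strands of 200 bp windows, were present in 160 of 30000 pooled regions (0.533%). They were in 17 of 89 thresholded peaks of the X chromosome (19.1%, 95% exact Clopper-Pearson interval 11.5 to 28.8%) and in 24 of 5248 other X regions (0.457%). On autosomes they were in 4 of 326 thresholded peaks (1.23%, interval 0.335 to 3.11%) and 115 of 24337 other regions (0.473%). Among the 25 highest pooled regions they were in 11 of 16 on the X chromosome (68.8%, interval 41.3 to 89.0%) and 0 of 9 on autosomes, where the interval reached 33.6%. The xol-1 region was one of these 11. The intervals cover counting error only, and regions of 1 chromosome are not independent samples. Mean GC content was 45.4% in the X peaks, 43.4% in the autosomal peaks and 34.8% in all pooled regions. Among the 25 highest regions it was 40.5% on the X chromosome and 43.4% on autosomes, and it was 34.5% in the xol-1 window. The part of GC content in these shares was not tested.

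**Figure D3:**
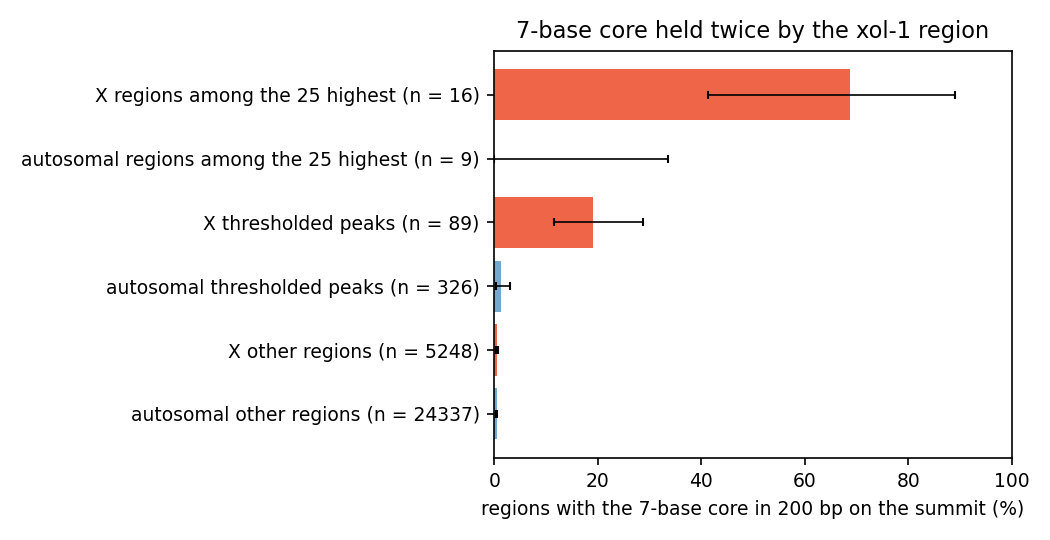
Share of regions, in percent, that hold GCGCAGG on either strand in the 200 bp on the summit (horizontal axis), for 6 sets of pooled regions on the vertical axis, red for the X chromosome and blue for autosomes. Bars are shares and lines are 95% exact Clopper-Pearson intervals, and the share was 68.8% for X regions and 0 of 9 for autosomal regions among the 25 highest.

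At least 2 copies of the core were present in 7 of 30000 regions (0.0233%). The 5 on the X chromosome were all thresholded peaks, with xol-1 at rank 14 and the others nearest to W02H3.3 at rank 1, cest-16 at rank 11, F22H10.2 at rank 13 and gtr-1 at rank 17. In the other 4 X peaks both copies faced the same way, and in that of xol-1 they were opposed. The 2 autosomal regions, nearest to math-7 at rank 11217 and H37A05.4 at rank 19468, were not thresholded peaks. A match to these letters is a description of the sequence and does not show which protein was bound there, and neither the dosage compensation complex nor any other factor was measured.

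The X signal elements sex-1 and fox-1 act upstream of xol-1 and keep it low in hermaphrodites, SEX-1 as a nuclear hormone receptor that represses its transcription and FOX-1 as an RNA-binding protein that acts on its splicing. The highest region of sex-1 (WBGene00004786, X 10201329 to 10205421, minus strand) lay at X 10207683 to 10208012, 2427 bp upstream, with sex-1 itself as the nearest start and F44A6.3 at 4921 bp on the other side. Its signal value was 13.5 in the pooled list, at rank 2848, and 12.1 in replicate 2, at rank 1868. No region of replicate 1 overlapped it. The highest region of replicate 1 in the sex-1 window was another one, 4291 bp upstream at rank 12196. The highest sex-1 region was thus backed by 1 replicate. Windows at or above that of sex-1 made up 25.9% of those at the other X genes in the pooled list, 70.4% in replicate 1 and 18.8% in replicate 2.

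fox-1 (WBGene00001484, X 2445117 to 2459893, minus strand) had 4 regions, all in its introns. The highest, at X 2454999 to 2455328, had a signal value of 10.1 and rank 7686, overlapped a region of replicate 2 at rank 20301 and none of replicate 1. None of the 4 overlapped regions of both replicates. In 76.8% of windows of the fox-1 length at other X genes the highest signal value was as high or higher, with 57.6% in replicate 1 and 79.1% in replicate 2. At all 3 X-linked genes of the set, xol-1, sex-1 and fox-1, regions were present, and at xol-1 alone among them was there a thresholded peak. Of the 2730 windows of the xol-1 length at other X genes, only 144 held no region. The presence of regions at these 3 genes thus says nothing particular about them. Over all protein-coding genes 5.24% had a thresholded peak.

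her-1 (WBGene00001842, V 9697015 to 9702035, plus strand) encodes the secreted ligand that promotes male development by binding TRA-2. Its highest pooled region lay at V 9695612 to 9695941, 1238 bp upstream of the start, with a signal value of 10.7 and rank 6321. It overlapped a region of replicate 2 at rank 10547 and none of replicate 1. Replicate 1 had its own region 2119 bp upstream, at V 9694761 to 9695030 with rank 883, which overlapped no pooled region. The replicates therefore placed their highest regions at her-1 at different positions. The second pooled region, at rank 21782, lay in a coding exon of the neighbour ztf-9, and the next gene toward the highest region was ZK287.7, which ended 992 bp away. Windows at or above that of her-1 made up 38.4% of 4993 on chromosome V in the pooled list, 6.75% in replicate 1 and 56.7% in replicate 2.

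tra-2 (WBGene00006605, II 6955384 to 6965673, minus strand) encodes the membrane receptor that HER-1 inhibits. Its highest region, at II 6968384 to 6968713, had a signal value of 34.7 and rank 240 in the pooled list, 9.03 and rank 488 in replicate 1, and 22.4 and rank 326 in replicate 2. It was within the first 2.10% of the list of replicate 1 and the first 1.09% of that of replicate 2. Like the xol-1 region, and unlike the other 8 genes' highest regions, it stood near the top of all 3 lists.

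The tra-2 region did not have tra-2 as its nearest gene. Its summit at 6968549 lay in an intron of C15F1.5, inside the small nuclear RNA gene sup-39 (II 6968394 to 6968558) and the overlapping non-coding RNA gene C15F1.14, and at the annotated position of mir-1831. The nearest protein-coding start was that of eif-2Bgamma, 901 bp away, and eif-2Bgamma lies between the summit and tra-2. As the capitals in the printed stretch show, the sup-39 gene covers the side of the stretch toward tra-2. Small nuclear RNA genes have near-identical copies. A blastn search of the region found 11 other matches in the genome, of which 8 had 90% or more identity over 100 or more bases and 0 covered 80% of its length. Reads from such copies may be assigned to any of them, so the height at this position is uncertain. Searches with the xol-1 and fem-1 regions found 0 other matches.

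Against 3448 windows of its length on chromosome II, the highest signal value at tra-2 was met or passed in 199 (5.77%), with 8.96% in replicate 1 and 6.90% in replicate 2. The remaining 4 regions at tra-2 had ranks of 16149, 16957, 27444 and 28518. One of them, in an intron at rank 27444, overlapped a region of replicate 1 at rank 1455. None was high in the pooled list.

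tra-3 (WBGene00006606, IV 14436445 to 14444183, minus strand) encodes a calpain-type protease that cleaves TRA-2. Its 3 regions had signal values of 7.88, 7.60 and 6.08 at ranks 15508, 16959 and 26940, and none overlapped a region of replicate 1. The first and the last are neighbouring entries that overlap each other and the same region of replicate 2, at rank 18361. In 82.3% of windows on chromosome IV the highest signal value was as high or higher, with 93.8% in replicate 1 and 68.6% in replicate 2, so tra-3 stood in the lower part of its chromosome.

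The FEM proteins act together to mark TRA-1 for breakdown in males, and their genes differed in signal. fem-1 (WBGene00001411, IV 5533140 to 5537962, minus strand), which encodes an ankyrin-repeat protein, had the only region of a fem gene close to its start. That region, at IV 5537860 to 5538189, had its summit 63 bp upstream of the fem-1 start and 463 bp from that of the divergent neighbour drp-1. Its signal value was 16.0 and its rank 1570 in the pooled list. In replicate 1 it had 10.3 and rank 322, within the first 1.38% of the list, and in replicate 2 it had 5.69 and rank 18780, at 62.6% of the list. The region was high in replicate 1 and low in replicate 2. Windows at or above that of fem-1 made up 15.2% of 3280 in the pooled list, 2.84% in replicate 1 and 64.3% in replicate 2. The share in replicate 2 rests on another region, in an intron 2761 bp past the start, with 7.12 and rank 10910.

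fem-2 (WBGene00001412, III 632019 to 634626, minus strand), which encodes a protein phosphatase, had 3 regions with a highest signal value of 6.83 at rank 21559. That region lay 4281 bp upstream in a non-coding exon of tag-266, nearer to the start of sbds-1, and for none of the 3 was fem-2 the nearest start. Replicate 1 held a region 70 bp upstream of fem-2 at rank 6320, which overlapped no pooled region. fem-3 (WBGene00001413, IV 9104966 to 9107607, plus strand), whose protein acts with FEM-1 and FEM-2, had 3 regions with a highest signal value of 6.84 at rank 21495. That region lay 1019 bp upstream, in the small gene C01F6.14, and overlapped regions of replicate 1 at rank 7568 and of replicate 2 at rank 23604. For fem-2 the highest signal value was as high or higher in 90.8% of windows in the pooled list, 54.3% in replicate 1 and 87.7% in replicate 2. For fem-3 these shares were 85.6%, 51.1% and 81.4%. Their pooled signal values were the 2 lowest of the 10 genes, and both genes were near the middle of their chromosome in replicate 1.

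tra-1 (WBGene00006604, III 11170890 to 11195201, minus strand) is the end point of the pathway, and at 24312 bp it is the longest of the 10 genes. It had 10 regions, 9 inside the gene and 1 upstream, and windows of its length of 29312 bp on chromosome III also had a median of 10. In replicate 1 its window held 13 regions against a median of 7, and in replicate 2 it held 7 against a median of 10. The highest lay in an intron 3849 bp past the start, with a signal value of 10.5 and rank 6767 in the pooled list, rank 10452 in replicate 1, and 11.2 and rank 2455 in replicate 2. The other 9 had ranks from 8710 to 27126. Replicate 1 had its own highest region at tra-1 in an intron 2527 bp past the start, at rank 2198, which overlapped no pooled region. Windows at or above that of tra-1 made up 87.6% in the pooled list, 50.1% in replicate 1 and 60.2% in replicate 2. The height at tra-1 was thus low in the pooled list and near the middle in each replicate.

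**Figure D4:**
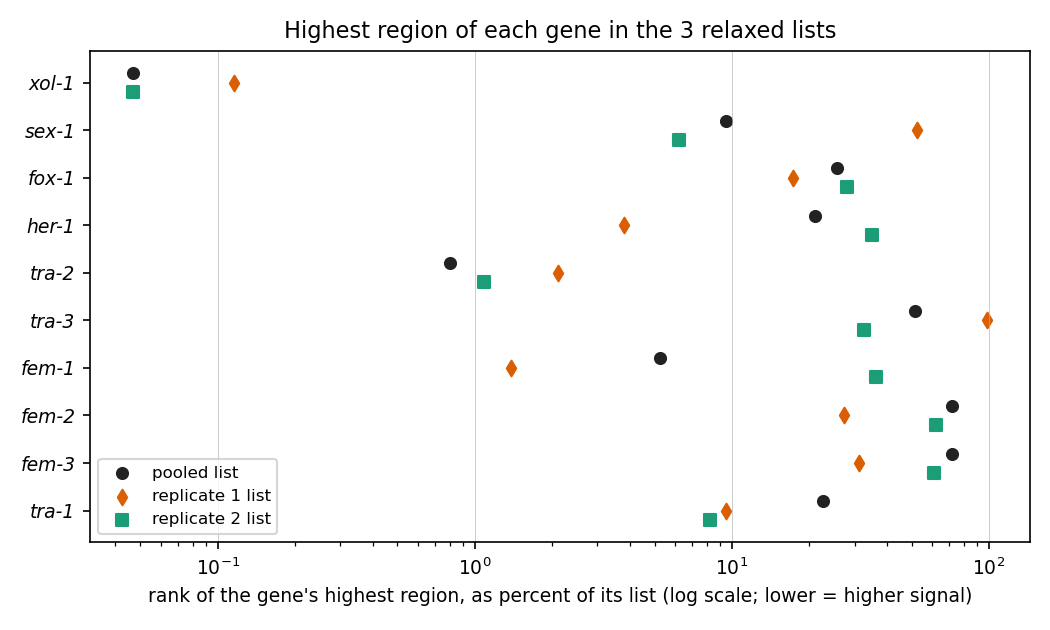
Rank of the highest region of each of the 10 genes as a percentage of its list (horizontal axis, log scale, lower is higher signal), for the pooled list (black), replicate 1 (orange) and replicate 2 (green). For xol-1 and tra-2 the values lie at or below 2.10% in all lists, and for fem-1 they run from 1.38% in replicate 1 to 36.4% in replicate 2.

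Ordered by their highest pooled signal value, the genes were xol-1 (149.7), tra-2 (34.7), fem-1 (16.0), sex-1 (13.5), her-1 (10.7), tra-1 (10.5), fox-1 (10.1), tra-3 (7.88), fem-3 (6.84) and fem-2 (6.83). Both replicates placed xol-1 first. tra-2 followed directly in replicate 2, at rank 326, and in replicate 1 fem-1, at rank 322, stood between xol-1 and tra-2, at rank 488. In replicate 2 the highest region of fem-1 was at rank 10910, below those of sex-1, tra-1, fox-1, tra-3 and her-1. The replicates gave different orders for these genes too: the highest region of her-1 was at rank 883 in replicate 1 and 10547 in replicate 2, and that of sex-1 at 12196 and 1868. Neighbours in the order below xol-1, tra-2 and fem-1 included, are therefore not separated by these data.

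Of the 5 patterns searched in the 200 bp windows of the 40 regions, GCGCAGG was in 1, the xol-1 peak. AGGTCA, a nuclear receptor half-site, was in 1 of 40 (2.5%), the peak at tra-2, where it lies inside sup-39, against 4.86% of all pooled regions. GGGTCA was in 1 of 40 (2.5%), a fox-1 intron region at rank 10197, against 3.01%. TGGGTGG, the core of the site that TRA-1 binds, was in 2 of 40 (5%, exact interval 0.611 to 16.9%), against 1.43%, and both were at tra-1 itself, at ranks 10127 and 26743. GAGAGAG was in 4 of 40 (10%, exact interval 2.79 to 23.7%), against 4.49%, with 2 at tra-1 and 1 each at tra-3 and fem-1. GAGAGAG had a higher share here than in all regions, but its interval includes that of all regions. The interval of TGGGTGG does so too. Both intervals cover counting error only, and regions of 1 gene are not independent samples. The counts of AGGTCA and TGGGTGG depended on the window. In windows of 100 bp AGGTCA was in 0 of 40 and TGGGTGG in 1, and in windows of 400 bp each was in 4. The counts of the other patterns did not change. No shares of all pooled regions stand beside these counts. The absence of a match says only that the letters are not in the window.

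Other genes of the pathway, fixed as lists of upstream counting elements, dosage compensation switch genes, downstream targets and germline sex regulators, were read in the same way. A region was present at 25 of 27 of them and a thresholded peak at 2 of 27, mog-4 and atx-2, against 93.4% and 5.24% of all protein-coding genes. The 3 counting elements, ceh-39 on the X chromosome and the autosomal sea-1 and sea-2, and the 3 sdc genes all had regions and no thresholded peak. Of the 6 downstream targets 5 had a region, with none at mab-23, and of the 15 germline regulators 14 had one, with none at fbf-1. The median rank of their highest regions was 6686, against 6213 for all protein-coding genes, so these lists were near the background.

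mog-4, which encodes a splicing helicase needed for the switch from sperm to oocytes, had 2 overlapping peaks next to its start. The peak at II 14561735 to 14561907, 204 bp upstream, had a signal value of 93.7 and rank 30, and the peak at 407 bp had 51.9 and rank 83. Both overlapped the same region of replicate 1, at rank 50, and of replicate 2, at rank 26. Unlike those of xol-1 and tra-2, the mog-4 peaks lay within 500 bp of their gene's start.

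atx-2, the ataxin-2 homologue that acts in germline sex determination, had a peak 593 bp upstream, at III 10460631 to 10460960, with a signal value of 34.0 and rank 252. That peak was nearer to the start of ecps-1, at 245 bp, and its rank was 5333 in replicate 1 and 280 in replicate 2. A second region 53 bp upstream of atx-2 had a signal value of 26.9 and rank 418, just under the threshold. Below the peaks, the highest regions were at sdc-2, sea-2 and dmd-3. The region of sdc-2, the gene that XOL-1 represses, lay 379 bp upstream at X 11522163 to 11522492 with a signal value of 22.8 and rank 596, and it was at rank 1509 in replicate 1 and 812 in replicate 2. That of sea-2 had rank 1265, and it overlapped a region of replicate 2 at rank 1684 and none of replicate 1. That of dmd-3, 4980 bp upstream and so just inside the limit of 5000 bp, had rank 1405. It overlapped a region of replicate 1 at rank 288 and none of replicate 2.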

How the data were processed

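ChIP-seq of eGFP-tagged NHR-77 was read from 4 deposited region lists on build ce11. The signal value of each region is a score deposited by the authors whose scale is not stated. Per the authors' deposited text files, each relaxed list had alignments and a control as its input, and the thresholded list had the 3 relaxed lists, so its peaks come from pooled replicates. The names and versions of the aligner and caller were not given in the sources used here. Lists on build ce10 were not used here.

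Regions were ranked by signal value within each list and joined to Ensembl release 115 genes (WBcel235) by summit. A replicate region counted for a pooled region when they overlapped. Motif letters were searched on both strands of 200 bp around the summit, and other copies with blastn 2.17.0+. Python 3.11.15, pandas 2.3.3 and scipy 1.17.1 were used, and scripts were tested on simulated data. With 1 group of 2 replicates and no contrast, no test over samples was made. Equal-length windows are a description: they ran from 5000 bp upstream at every other protein-coding gene of the chromosome.

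The members and lists were chosen with earlier results of these data known. Named genes were the 10 members, other pathway genes with a thresholded peak or else the 3 with the highest region, the genes next to the highest regions, and the 3 X levels above and below xol-1. Alternatives varied the distance limit, the part of the region that decides, the transcript start, the list, the window measure, the overlap rule and the motif window. Restriction to nearest starts was chosen after seeing the data. mog-6 and she-1 were not matched by symbol.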

Additional observations from a re-analysis of the deposited data

How the results depend on the processing

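Inside the gene or within 500 bp of its start, 6 of the 10 genes had a pooled region and 0 a thresholded peak, and within 2000 bp the latter count was also 0. Values over all protein-coding genes were not set beside those at 500 and 2000 bp. The lower counts and median ranks at these limits therefore say nothing particular about these genes. The count of 2 with a thresholded peak was 1 in the upper 208 of the 415 peaks and 1 with the nearest-start restriction, which was chosen after seeing the data. It was 2 in the 415 highest regions of either replicate alone, but in replicate 1 these were xol-1 and fem-1, with tra-2 at rank 488, and in replicate 2 xol-1 and tra-2. The count with a region was 10 in either. The median rank of the highest region, 21.8% of the list, was 38.7% within 500 bp and 51.7% within 2000 bp, and 13.4 to 30.3% with 1 replicate left out. The share of X windows at or above xol-1, 0.916%, was 57.8% by number of regions and 0.476 to 0.842% with 1 replicate left out. For tra-2 the share of 5.77% was 21.6% by summed signal, 46.2% by number of regions and 6.90 to 8.96% with 1 replicate left out. The cause was not tested. Counting all annotated genes gave 0.734% for xol-1. Of the further values for single genes, replicate ranks and motifs, 36 moved and 42 did not. No paired analysis was possible because there was 1 group. Depth is unknown, so the noise that shallow sequencing adds to the ranks of a list cannot be judged.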
